A study of Mus musculus with 14 samples.

Results

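Peaks of RNA polymerase II phosphorylated at serine 2 of its tail (S2P) that were listed only in Chd7 knockout (KO) cells are described here. They were chosen by a rule on the deposited peak lists: every KO S2P peak under 10000 bp that overlapped no wild-type (WT) S2P peak by 1 bp or more. The rule found 43387 KO-only peaks among 165206 KO S2P peaks, or 26.3% of that list and 8.01% of the 541869 peaks in all 6 lists of the study. Because the members were selected on the WT and KO S2P lists, their number, strength, width and distance from WT peaks are given as descriptions and support nothing.

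The study profiled GATA2, RUNX1 and S2P by ChIP-seq in G1ER cells, mouse erythroid precursors without a working Gata1 gene that express GATA1 fused to the estrogen receptor, which estradiol switches on. Cells were WT or lacked Chd7, and both genotypes share this GATA1-null background. For each genotype there was 1 library of GATA2, 1 of RUNX1 and 2 of S2P. The labels name a single S2P list for both replicates of a genotype and do not say how these were merged. The labels do not say whether the cells used for ChIP had received estradiol, which they name only for a differentiation assay of 48 hours, nor how many knockout clones were used. With 1 list per target and genotype there is no replicate spread, so no difference between genotypes could be tested. Intervals are exact 95% intervals, Clopper-Pearson for shares and Poisson for fragments. They cover counting error only, and peaks are not replicates.

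Serine 2 of the repeated tail of RNA polymerase II is phosphorylated mainly by CDK9 and CDK12 once the enzyme has left the region near the promoter, so S2P marks elongating polymerase along gene bodies and is densest toward gene ends. CHD7 is a chromatin remodeller that moves nucleosomes with energy from ATP. RUNX1 and GATA2 are transcription factors of blood stem and progenitor cells, and the series concerns the action of CHD7 with RUNX1 during blood cell differentiation.

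KO-only peaks on gene starts were few, and the strongest of them by −log10 q are shown first because their sequence and factor occupancy can be read directly. Promoter sequences are from RefSeq (GRCm38.p6), 5′ to 3′ on the strand of the gene, from 250 bases before to 50 bases after the start. In the first 3, capitals mark the bases inside the KO-only peak. Akt2 encodes an insulin-responsive kinase (chr7:27591302-27591601, plus strand), Psmd12 a subunit of the proteasome lid (chr11:107479278-107479577, plus strand) and Mrpl28 a protein of the mitochondrial ribosome (chr17:26123253-26123552, plus strand). In the last, the promoter of Dpp4 (chr2:62412182-62412481, minus strand), which encodes the cell surface peptidase CD26, no base lay in an S2P peak and capitals mark the letters AGATAA, the core read by GATA factors.
Akt2: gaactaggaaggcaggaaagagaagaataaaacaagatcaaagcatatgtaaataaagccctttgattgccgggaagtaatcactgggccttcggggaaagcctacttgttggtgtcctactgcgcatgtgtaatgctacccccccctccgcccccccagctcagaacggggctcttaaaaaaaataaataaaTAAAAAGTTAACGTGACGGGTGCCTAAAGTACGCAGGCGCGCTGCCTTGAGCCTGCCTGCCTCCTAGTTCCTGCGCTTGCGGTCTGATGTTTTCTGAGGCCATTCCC
Psmd12: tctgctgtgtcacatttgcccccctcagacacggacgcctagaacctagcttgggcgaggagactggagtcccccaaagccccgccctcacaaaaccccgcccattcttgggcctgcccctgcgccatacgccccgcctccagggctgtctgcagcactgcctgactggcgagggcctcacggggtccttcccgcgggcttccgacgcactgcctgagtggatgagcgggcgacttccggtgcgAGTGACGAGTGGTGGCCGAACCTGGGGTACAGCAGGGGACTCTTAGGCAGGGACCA
Mrpl28: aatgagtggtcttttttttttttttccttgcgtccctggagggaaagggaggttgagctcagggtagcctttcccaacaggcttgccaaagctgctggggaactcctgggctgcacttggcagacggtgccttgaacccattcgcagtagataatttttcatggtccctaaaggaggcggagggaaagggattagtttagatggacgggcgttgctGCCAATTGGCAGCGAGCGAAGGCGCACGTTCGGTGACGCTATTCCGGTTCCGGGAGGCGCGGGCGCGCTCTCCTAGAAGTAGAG
Dpp4: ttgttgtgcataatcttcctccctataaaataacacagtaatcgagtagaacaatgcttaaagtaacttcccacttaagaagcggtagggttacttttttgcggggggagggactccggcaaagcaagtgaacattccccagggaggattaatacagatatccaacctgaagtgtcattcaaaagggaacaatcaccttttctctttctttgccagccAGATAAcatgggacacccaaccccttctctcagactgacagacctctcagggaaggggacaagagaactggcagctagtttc

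The KO-only peak at Akt2 had 71 fragments at its summit (55.5 to 89.6) and ended 76 bp from a WT peak. At Psmd12 the KO-only peak had 84 fragments (67.0 to 104) and lay 2193 bp from the closest WT peak. At Mrpl28 it had 81 fragments (64.3 to 101), lay 3030 bp from the closest WT peak and was the only KO-only peak of a gene that held 0 WT summits. The other 3 of the 6 strongest by −log10 q were at Orc4, a subunit of the origin recognition complex (72 fragments), at Ergic2, a protein of the ER-Golgi intermediate compartment (70 fragments), and at AA986860 (61 fragments). RUNX1 peaks of both genotypes overlapped the promoter windows of Akt2, Orc4, Psmd12, Ergic2 and Mrpl28, and neither RUNX1 list had a peak at that of AA986860. Only the Ergic2 window also held a GATA2 peak, in WT. The letters AGATAA or their reverse complement TTATCT were in 11.2% of all 32851 promoter windows, and TGTGGT or ACCACA, a core read by RUNX factors, in 16.8%. AGATAA was found on 1 or the other strand at Mrpl28 and Dpp4 and TGTGGT at Ergic2 among these 7 windows. These matches are letters, not shown sites.

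Of all KO-only peaks, 168 covered an annotated start site, a share of 0.387% (0.331 to 0.450%). The share was 0.697% (0.608 to 0.794%) among WT-only peaks, defined in the same way with the genotypes exchanged (32014 peaks), and 1.83% among the 121035 KO peaks under 10 kb that overlapped a WT peak, called shared here. KO RUNX1 peaks overlapped 64.3% of the 168, 73.0% of the shared peaks on starts and 71.7% of the WT-only peaks on starts. KO GATA2 peaks overlapped 7.14%, 24.97% and 8.07% of them. Shared peaks on starts were far wider, with a median of 1049 bp against 213 bp for the KO-only ones, so overlap alone favours them. Start sites were those of the promoter table, which gave a strand for 17492 of 21887 coding genes and held no gene of chromosome 18. Peaks on other starts were not counted, but the denominators kept all peaks, among them 1544 KO-only, 3890 shared and 1082 WT-only peaks of chromosome 18. The shares on starts are therefore lower bounds in each class.

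Within genes, a smaller share of KO-only than of WT-only peaks lay near the start, and a larger share lay in the body and toward the end. Position was not part of the rule. Each peak whose summit lay in exactly 1 protein-coding gene of at least 2 kb with a known strand was placed by deciles of the length of the gene, counted from its annotated start. The first decile held 6.19% (5.93 to 6.47%) of 30763 KO-only peaks, 8.39% (8.20 to 8.58%) of 83764 shared peaks and 13.3% (12.9 to 13.8%) of 23467 WT-only peaks. The share of KO-only peaks then reached 11.4% in decile 6, while WT-only peaks declined to 8.18% in the last decile. The second 50% of the gene held 55.0% of KO-only, 54.9% of shared and 44.4% of WT-only peaks. The first-decile share was smaller for KO-only than for WT-only peaks on each of the 19 chromosomes that could be placed, from 5.07 to 7.28% against 10.5 to 17.8%. Chromosome 18 had no gene with a strand in the table and was not placed.

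**Figure D1:**
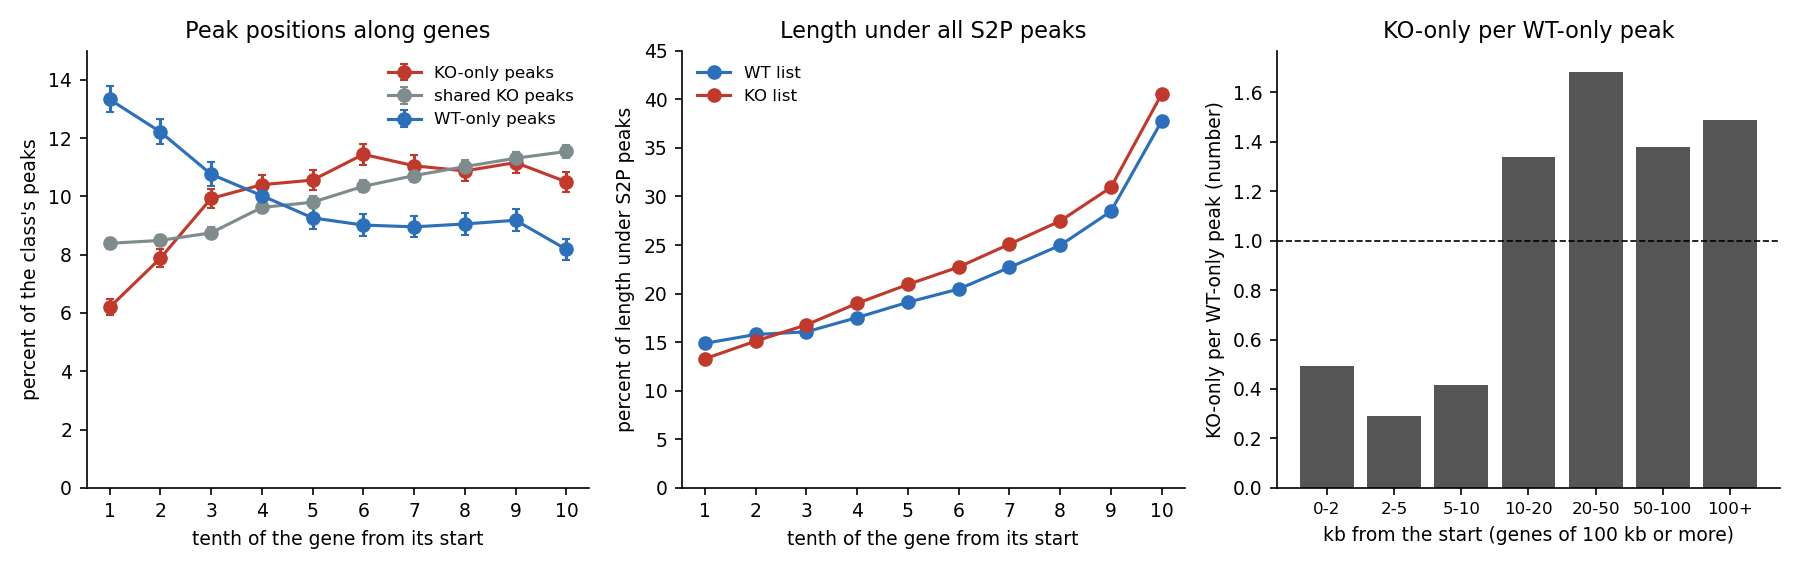
Left, percent of the peaks of each class whose summit fell in each decile of a gene, with exact 95% intervals for counting error. Middle, percent of the length of each decile under any S2P peak of the WT or KO list, over 7715 genes. Right, number of KO-only peaks per WT-only peak by distance from the gene start, in genes of 100 kb or more, with a dashed line at 1. KO-only peaks start at 6.19% and WT-only peaks at 13.3%, and the ratio at the right is under 1 in the first 10 kb.

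The same arrangement was seen in distance. In genes of 100 kb or more, the first 2 kb held 67 KO-only and 136 WT-only peaks, or 0.493 KO-only peaks per WT-only peak. From 2 to 5 kb there were 62 and 214 (0.290), and from 5 to 10 kb there were 156 and 375 (0.416). From 10 to 20 kb there were 576 and 430 (1.34), and from 20 to 50 kb 2092 and 1242 (1.68). Beyond 100 kb there were 4779 and 3209 (1.49), so WT-only peaks were the more numerous class in each bin up to 10 kb and KO-only peaks in each bin beyond.

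The same positions were then read from the full lists, with shared peaks and peaks of any width included. Over 7715 genes with an S2P peak in both lists, peaks lay over 14.9% of the first decile in WT and 13.3% in KO, a KO to WT ratio of 0.893. The ratio was 0.957 in decile 2, 1.04 in decile 3, 1.11 in decile 6 and 1.07 in decile 10. In these lists KO peaks covered less of the first 2 deciles and more of every later decile than WT peaks, and which of library, replicate pooling or genotype goes with this cannot be told apart from 1 list per genotype.

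The size of the difference varied with gene length and peak strength. In genes of 2 to 20 kb the first decile held 9.36% (8.35 to 10.5%) of KO-only and 11.04% (9.96 to 12.2%) of WT-only peaks, whose intervals overlap, while the last decile held 9.03% and 4.41%. In genes of 50 to 100 kb the first decile held 4.77% and 15.2%, and in genes of 100 kb or more 6.04% and 12.3%. Among peaks with 40 fragments or more the first decile held 20.6% (19.1 to 22.2%) of KO-only, 11.8% of shared and 40.4% (38.5 to 42.4%) of WT-only peaks. Strong peaks of either genotype alone thus had a larger share near starts than all peaks of their class, and the KO-only share was still the smaller one of the single-genotype classes. Of 463 genes with at least 10 peaks of each class, the median KO-only position was nearer the gene end than the median WT-only position in 275, or 59.4%.

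KO-only peaks were short and modest. Their median width was 208 bp (quartiles 169 and 277 bp), against 423 bp for shared and 201 bp for WT-only peaks. Their summits rested on a median of 27 fragments (quartiles 24 and 32, range 16 to 198), against 38 for shared and 27 for WT-only peaks, over a local background of 9.12 fragments. At least 40 fragments were reached by 4126 KO-only peaks (9.51%), by 47.3% of shared peaks and by 10.8% of WT-only peaks, and 31 KO-only peaks reached 100. The lists had nearly the same floor, since the lowest local background was 7.07 fragments in KO and 7.00 in WT and the weakest summit 16 fragments in both. For each WT-only peak there were 1.36 KO-only peaks. KO-only peaks made up 51.0% of the weakest decile of the KO list by −log10 q and 0.103% of the strongest, which was 17 peaks. In all they spanned 10.5 Mb, or 8.54% of the 123 Mb under KO S2P peaks.

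**Figure D2:**
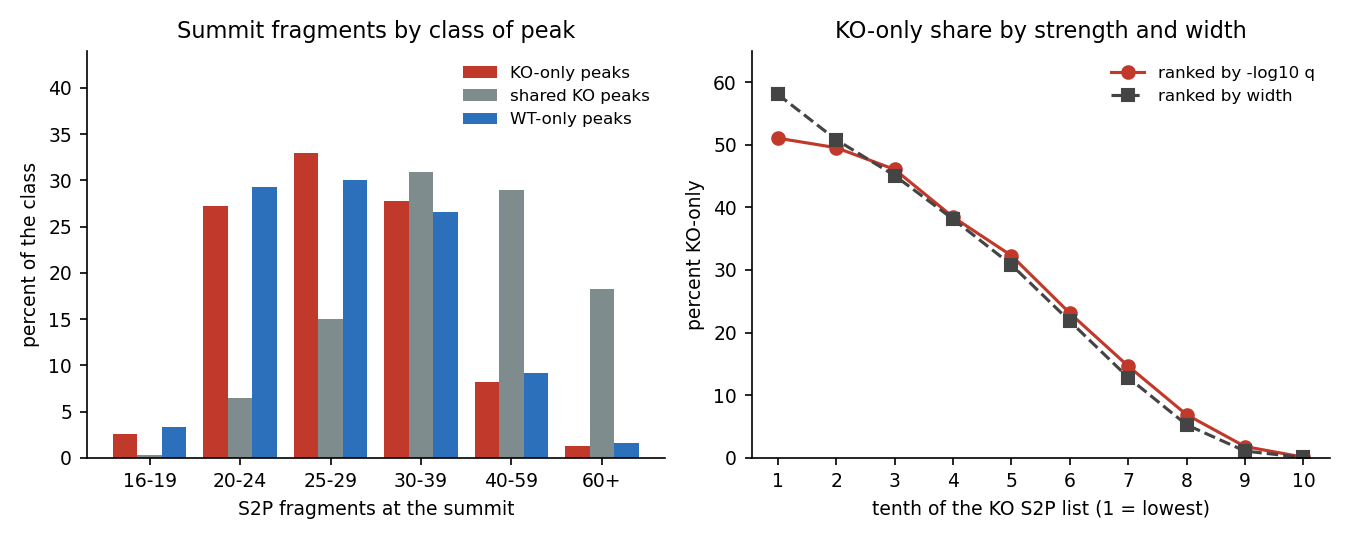
Left, percent of each class of S2P peak by fragments at the summit. Right, percent of KO S2P peaks under 10 kb that are KO-only, by decile of the list ranked by −log10 q or by width. KO-only and WT-only peaks pile up under 40 fragments, and the KO-only share falls from 51.0% to 0.103% along the ranking by −log10 q. These measures entered the rule or follow from it.

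Most KO-only peaks adjoined WT signal. The median gap to the closest WT peak was 460 bp, 52.3% lay within 500 bp of one, 70.6% (70.2 to 71.0%) within 1 kb and 93.1% within 5 kb. WT-only peaks lay as near to KO peaks, with a median gap of 425.5 bp and shares of 54.7%, 72.1% and 93.6%. At the edge of the rule, 44 KO-only peaks touched a WT peak with no gap, and 44 shared peaks overlapped one by 1 bp. The 2383 KO-only peaks with a gap of at most 50 bp had a median of 28 fragments, and the 2414 shared peaks overlapped by at most 50 bp had 27. By width the rule removed no peak that otherwise qualified: the widest member was 7410 bp and the next 4997 bp. The 784 KO peaks of 10 kb or more all overlapped a WT peak.

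Most KO-only peaks lay in genes that also carried S2P in WT, by a share near those of the other classes. The summit was in a gene of any type for 91.1% (90.8 to 91.4%) of KO-only, 88.8% of shared and 93.0% of WT-only peaks. A protein-coding gene with a WT S2P summit held 87.4% (87.1 to 87.7%) of KO-only peaks, which is 98.7% of those in protein-coding genes. A coding gene with a summit of the other genotype held 86.3% of shared and 89.99% of WT-only peaks, or 99.9% and 98.8% of those in coding genes. Among 4948 KO-only peaks outside protein-coding genes, 39.3% were within 10 kb past the 3′ end of the closest gene, 20.05% within 10 kb before its start and 26.8% farther away. For 16479 shared peaks outside these genes the shares were 52.1%, 15.1% and 17.6%, and for 2867 WT-only peaks 40.7%, 20.2% and 24.7%.

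Of 21887 protein-coding genes, 6515 held at least 1 KO-only peak, a background of 29.8% against which the gene lists below are read, or 68% of the 9580 genes with a KO S2P summit. WT-only peaks were in 6165 genes, and 4866 genes held both. More KO-only than WT-only peaks were in 4148 genes, fewer in 2811 and equal numbers in 855. At least 20 KO-only peaks were in 382 genes, which had a median length of 128 kb and held 32.1% of the in-gene peaks. At least 20 WT-only peaks were in 191 genes.

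The genes with most KO-only peaks were long and held many S2P peaks in both genotypes. Adk, which encodes adenosine kinase (396 kb), held 128 KO-only peaks with 18 to 77 fragments, and 64 WT-only peaks. Diaph3, a formin that nucleates actin filaments, held 117 and 71. Vps13b, a lipid transfer protein of the Golgi, held 110 and 59, and Pola1, the catalytic subunit of DNA polymerase alpha, 96 and 34. Faf1, a ubiquitin-binding cofactor of the p97 ATPase, held 94 and 36, Dennd1a 89 and 42, and Chchd3, a protein of mitochondrial cristae, 79 and 34. In 2 of the 10 the WT-only peaks were as many or nearly so: Atxn1 held 94 and 88, and Utrn, which encodes utrophin, 88 and 94.

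A smaller group of genes, picked after the values were seen, held far more KO-only than WT-only peaks. Of the 382 genes with at least 20 KO-only peaks, 41 held at least 4 times as many of them as WT-only peaks. The reverse was found in 9 of the 191 genes with at least 20 WT-only peaks. The sizes of the classes enter these counts, 43387 KO-only against 32014 WT-only peaks. Garem1, an adaptor of growth factor receptor signalling, had 78 KO-only and 10 WT-only peaks, and its length under S2P peaks was 18.4% in WT and 38.6% in KO. Cnnm2, a magnesium transport protein, had 54 and 5, with coverage of 20.03% and 34.1%. Zbtb16, which encodes the zinc finger repressor PLZF, had 47 and 3, with coverage of 49.4% and 76.9%. Its KO-only summits had 26 to 64 fragments with a median of 42, well above the median of 27 for all members. Pde4d, a cAMP phosphodiesterase, had 72 and 18, and its KO-only peaks all lay between 79.95% and 98.5% of the way along the 1302 kb gene. Sytl5, a binding partner of RAB27 on the X chromosome, had 52 and 0, with coverage of 0.954% and 8.72%.

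Further genes of this group were Galnt10, which starts mucin-type glycans (43 KO-only and 4 WT-only peaks), Prep, a prolyl peptidase (38 and 6), Hacd2, of fatty acid elongation (36 and 5), Ints6, a subunit of the Integrator complex (33 and 4), and Pde3b, a cAMP phosphodiesterase (29 and 1). Their coverage in WT and KO was 18.8% and 28.3% at Galnt10, 20.6% and 39.97% at Prep, 21.6% and 37.7% at Hacd2, 42.2% and 56.1% at Ints6, and 5.30% and 13.8% at Pde3b. Coverage was thus larger in KO in each gene of the group named here, which the choice of genes favours. In the reverse group, Ctbp2, a transcriptional corepressor, had 8 KO-only and 113 WT-only peaks, with coverage of 53.2% in WT and 14.4% in KO. Cmip, a signalling adaptor, had 2 and 43, with 5.97% and 0.860%, and Spred1, an inhibitor of RAS signalling, had 4 and 21, with 56.9% and 45.8%.

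**Figure D3:**
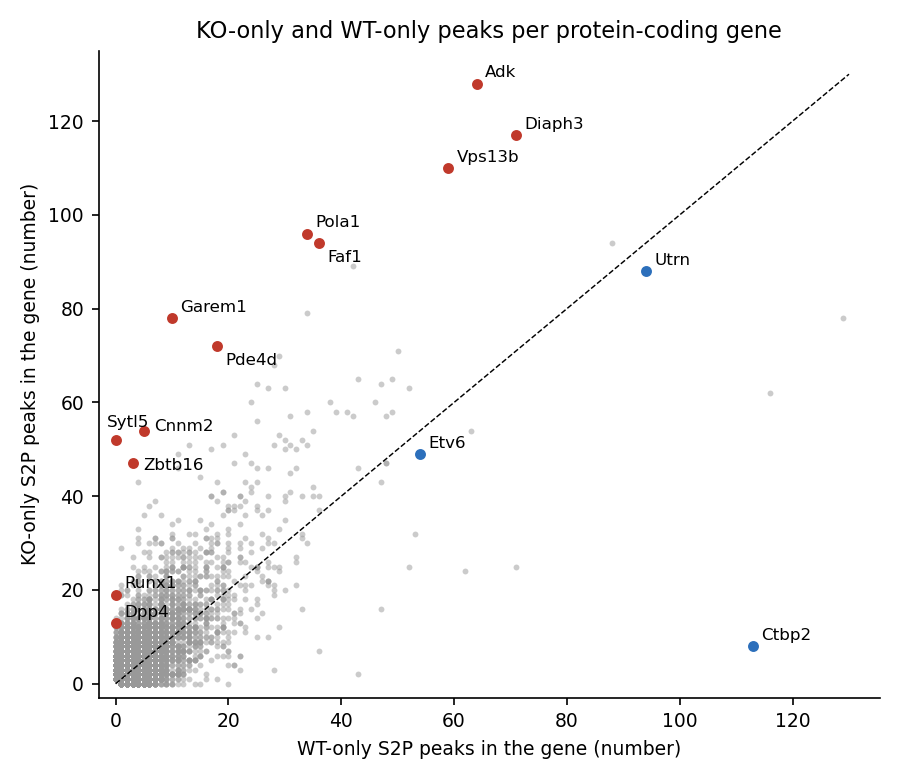
Number of KO-only S2P peaks (vertical) against WT-only S2P peaks (horizontal) in each protein-coding gene that holds either. Each point is 1 gene, the dashed line marks equal numbers, and named genes are red where KO-only peaks are more and blue where WT-only peaks are more. Adk stands at 128 and 64, Sytl5 at 52 and 0, and Ctbp2 at 8 and 113.

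Genes with KO-only peaks and no WT S2P peak anywhere in the gene numbered 274, and 199 genes held WT-only peaks and no KO peak. Of the 274, 194 held a single KO-only peak, 34 held 3 or more and 15 held 5 or more. In the reverse direction 12 genes held 3 or more and 2 held 5 or more. These counts follow from the rule in part, since a gene without WT peaks can hold KO-only peaks alone. The sizes of the classes also enter them, 43387 KO-only against 32014 WT-only peaks.

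Dpp4 led this group, with 13 KO-only peaks and the closest WT peak 236 to 275 kb away. Its summits had 21 to 50 fragments with a median of 28. All 13 lay between 50.75% and 99.05% of the way along the gene, and the closest member to the promoter printed above was 41529 bp from it, with no S2P peak of either genotype before that. The gene held 22 WT and 23 KO GATA2 summits, and 6 WT and 8 KO RUNX1 summits. Fhdc1, a formin, held 9 peaks of 25 to 62 fragments, again mostly toward the end, with a median position of 89.6%. Its length under KO peaks was 12.3%, and it held 12 WT and 17 KO GATA2 summits and 6 WT and 11 KO RUNX1 summits.

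Slc22a4, a transporter of ergothioneine, held 9 peaks of 20 to 40 fragments, with a median position of 79.2%. Phf24 held 9 peaks of 25 to 77 fragments, which lay between 2.54% and 15.8% of the gene and so near its start. The run of these 9 peaks also overlapped the gene Fam205c, so they cannot be assigned to Phf24 alone. Tbc1d21, a RAB GTPase activating protein known from sperm, held 7 peaks of 25 to 49 fragments over 40.1% of its length, and no factor summit of either genotype. Itga5, the alpha subunit of the fibronectin receptor, held 7 peaks. Polrmt, the mitochondrial RNA polymerase, and Chmp5, a subunit of the ESCRT-III complex, held 6 each, at median positions of 85.3% and 66.6%. Atp8b1, a phospholipid flippase, held 6 with up to 126 fragments, and Selenbp1, a selenium-binding methanethiol oxidase, held 5 with 41 to 108 fragments. The smallest gap between a member and a WT peak was 0.27 kb for Slc22a4 and 0.892 to 3.84 kb for Itga5, Polrmt, Chmp5 and Selenbp1.

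Tbc1d21 also had the largest share of its length under KO-only peaks. It was followed by Cxcr6, a chemokine receptor gene of 5.28 kb (35.7%), and by Gpr21 (28.0%), Reep2 (27.4%), Klhl9 (27.2%), Coa6 (23.8%), Spata46 (23.2%), Pgghg (22.7%), the clock-associated Ciart (22.0%) and Zbtb3 (21.3%). Except Tbc1d21 these rested on 2 to 6 peaks in genes of 2.37 to 6.88 kb. Coverage by WT peaks was 0% at Coa6, 3.07% at Cxcr6 and 47.1% at Zbtb3.

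The strongest KO-only peak by −log10 q lay in no annotated gene. It spanned chr3:8013863-8021272, 7410 bp, with 153 fragments (130 to 179) over a background of 11.4, a −log10 q of 105, and no WT peak within 308 kb. The closest named protein-coding gene, Il7, was 400 kb away. It was 1 of 9 KO-only peaks in a run of 13.7 kb (chr3:8008547-8022199) of which 89.8% lay under peaks, and no GATA2 or RUNX1 summit of either genotype fell in the run. Such a density was not typical: 20516 KO-only peaks, or 47.3%, stood alone, with no other KO-only peak within 10 kb unless a WT peak lay between.

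Among peaks in named genes the strongest by −log10 q lay in Cntnap2, a neuronal adhesion gene of 2241 kb, at chr6:47181452-47184044, with 68 fragments (52.8 to 86.2) and 135.1 kb from the closest WT peak. It belonged to a run of 7 KO-only peaks over 11.1 kb, 77.2% of it under peaks, near 94.7% of the way along the gene. Fhdc1 came next with 62 fragments at 98.0% of the gene, then Qsox2, a sulfhydryl oxidase, with 79 fragments at 1.09% of the gene, and Akt2 at its start. Diaph1, a formin, had 80 fragments and Rhbdd1, a rhomboid protease, 62 at 26.4% of a gene with 44 KO-only peaks. Tbc1d21 had 49 fragments, Taco1, an activator of cytochrome oxidase translation, 62, and Ikzf2 64. RUNX1 peaks of both genotypes overlapped those at Qsox2 and Akt2, and neither RUNX1 list had a peak on those at Cntnap2, Fhdc1, Diaph1, Rhbdd1, Tbc1d21, Taco1 and Ikzf2.

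KO-only peaks also came in runs, with no WT peak between them and gaps of at most 10 kb. Counting single peaks as runs, there were 29171 runs of KO-only and 23296 of WT-only peaks. Of these, 549 and 282 had 5 or more peaks, and 31 and 23 had 9 or more. The larger number of KO-only peaks enters these counts. The run with the most members had 16 peaks over 15.4 kb (chr3:78993438-79008823), 53.7 kb past the 3′ end of Rapgef2. Another, of 12 peaks over 13.8 kb, began 8.40 kb past the end of Tcf7l2. Within genes, Pde3b held a run of 15, Ptk2 a run of 13, and Med13l and Sos2 runs of 12. A run of 13 overlapped Tbc1d21 and went on past its 3′ end, and a pair of runs of 12 lay toward the start of Sytl5 and across its end. At least 20 kb from any WT peak there were 857 of the 43387 KO-only peaks, and 63 of the 857 were in runs of 5 or more. Within 10 kb of a peak of the other genotype lay 96.5% of KO-only and 96.9% of WT-only peaks.

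**Figure D4:**
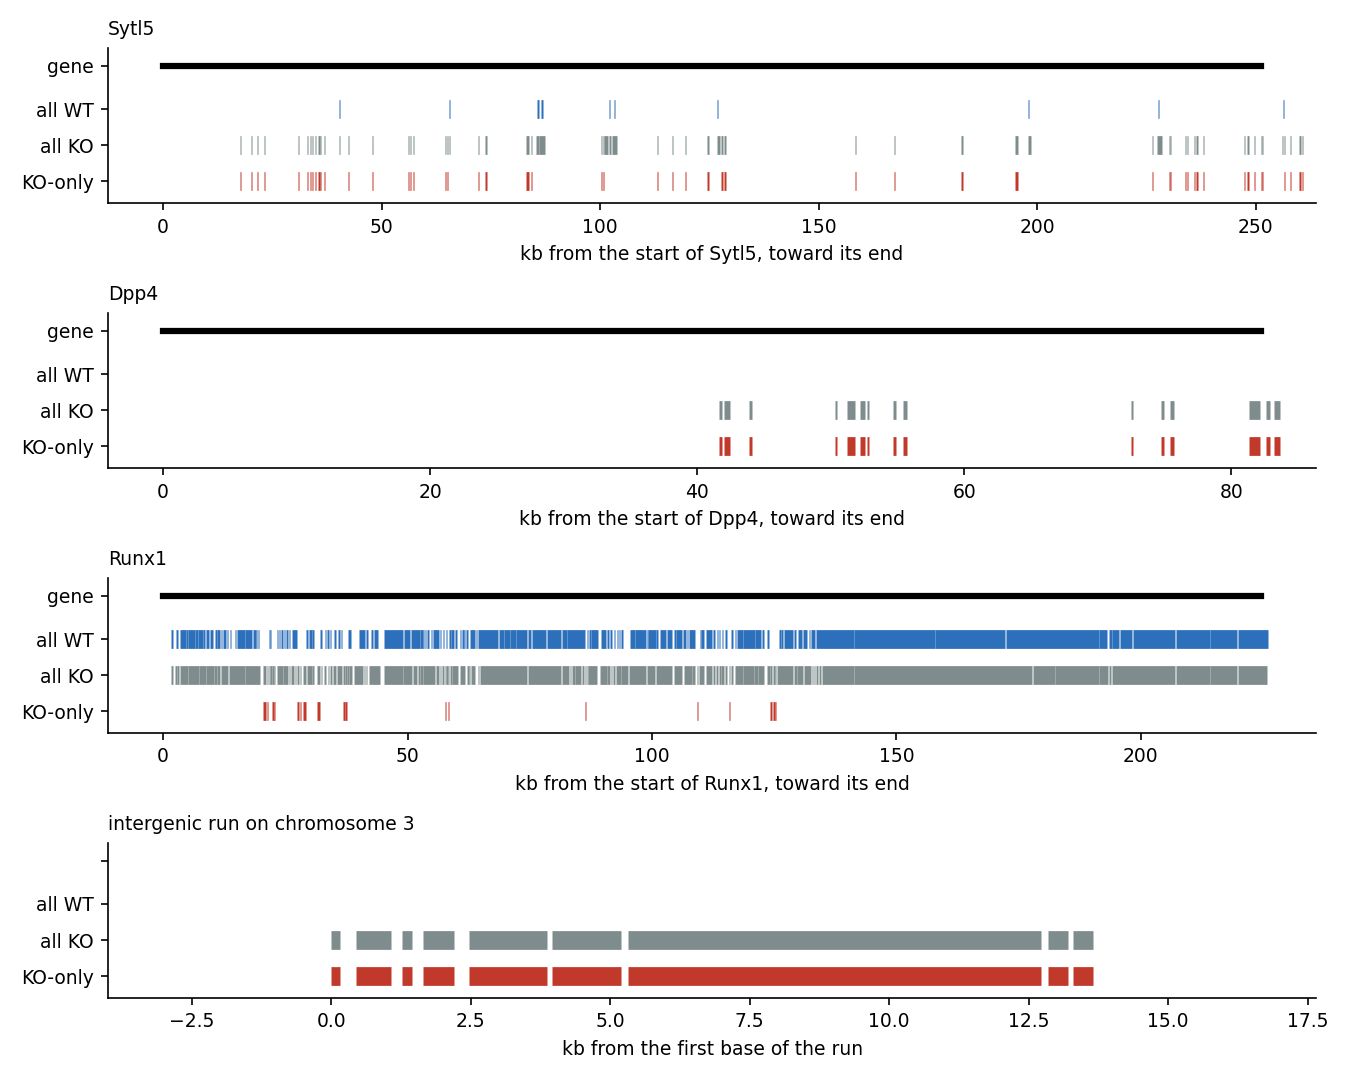
S2P peaks along Sytl5, Dpp4, Runx1 and the run of 9 peaks on chromosome 3, in kb from the gene start toward its end, or from the first base of the run. Rows show all WT peaks (blue), all KO peaks (grey) and KO-only peaks (red), and the black bar is the gene. Dpp4 and the run have 0 WT peaks, Sytl5 has 12 WT peaks and 52 KO-only peaks, and in Runx1 the 19 KO-only peaks fill gaps in a largely covered gene.

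Runx1 itself held 19 KO-only and 0 WT-only peaks, in a gene that was 80.6% under S2P peaks in WT and 89.0% in KO. Their summits had 27 to 60 fragments with a median of 37, and they lay between 8.93% and 55.8% of the gene with a median of 16.5%. The gaps to the closest WT peak had a median of 232 bp. Chd7, the targeted gene, was under no S2P peak in either genotype, so it gave no check of the labels.

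Gene lists are read against the 29.8% of all protein-coding genes that held a KO-only peak and their median of 0 such peaks. The other background is the 68.0% of genes with a KO S2P peak that held a KO-only peak. A list can be high or low by how many of its genes carry S2P at all. In these lists a gene with a KO S2P peak is one that holds the summit of such a peak. Summed over all protein-coding genes there were 38889 KO-only and 29496 WT-only peaks, the background for the peak totals of each list. More KO-only than WT-only peaks were in 4148 of all these genes and fewer in 2811. Genes were chosen for these lists by known function, with earlier results of these data known. Of 55 matched erythroid genes 27 held KO-only peaks, 180 peaks against 126 WT-only peaks, with a list median of 0. The 27 were 49.1% of the list, above the 29.8% of all genes, but 57.4% of its 47 genes with a KO S2P peak, below the 68.0%. Stat5b, which relays erythropoietin signals, held 25 KO-only and 5 WT-only peaks, Ank1, the ankyrin of the red cell membrane, 23 and 19, and Xpo7, a nuclear exporter, 19 and 19. More KO-only than WT-only peaks were in 16 of the 55 genes and fewer in 16.

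Of 39 stem and progenitor genes, 11 held KO-only peaks (112 against 76 WT-only), which was 64.7% of the 17 with a KO S2P peak. Etv6, a repressor of the ETS family, held 49 KO-only and 54 WT-only peaks. Ikzf2, the Ikaros family factor Helios, held 21 and 1, with 33 to 64 fragments, and its coverage was 0.913% in WT and 4.78% in KO. The totals of the list differed by less than Ikzf2 and Runx1 did together. Of 16 RUNX and CHD family genes, 12 held KO-only peaks (122 against 86), which were all of those with a KO S2P peak, and the list median was 5. Chd6 held 37 and 27 and Chd8 12 and 4. The median length of this list was 70.9 kb against 17.2 kb for all genes, and longer genes hold more peaks.

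Of 35 genes of polymerase pausing and elongation, 24 held KO-only peaks (137 against 126 WT-only), which was 70.6% of the 34 with a KO S2P peak, with a list median of 2. Aff4 and Aff1, scaffolds of the super elongation complex, held 16 and 13, and 15 and 11. Cdk12, which phosphorylates serine 2, held 14 and 8. KO-only peaks exceeded WT-only peaks in 12 of these 35 genes and fell short in 14. Of 32 cell cycle genes 12 held KO-only peaks (71 against 79), led by Rb1 (26 and 22), Cdk6 (16 and 24) and Bub1 (8 and 2). The 12 were 37.5% of the list but 40% of its 30 genes with a KO S2P peak. Of 24 housekeeping genes 4 did (6 against 18), among them Actg1 (2 and 0), Hprt (2 and 6) and Gapdh (1 and 0), which was 28.6% of the 14 with a KO S2P peak.

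Few genes of other blood lineages held the summit of a KO S2P peak: 5 megakaryocyte, 7 mast cell, 4 lymphoid and 3 myeloid genes. KO-only peaks were in 80%, 42.9%, 100% and 33.3% of these, each a share of very few genes. Gp5 (megakaryocyte) and Cd68 (myeloid) held no KO summit, but 100% of their length lay under KO S2P peaks. Of 24 megakaryocyte genes 4 held KO-only peaks (11 against 20 WT-only), with Itga2b at 5 and 1, Plek at 4 and 8 and F2rl2 at 1 and 1. Of 19 mast cell genes 3 did (6 against 16), Cpa3 at 3 and 8, Hpgds at 2 and 2 and Il1rl1 at 1 and 5. Of 28 lymphoid genes 4 did, with Tcf7 at 4 and 0, Foxp3 at 2 and 3 and Gata3 at 2 and 2, and of 26 myeloid genes only Spi1 did, at 2 and 0. Of 33 genes of other tissues only Pax6 did, at 3 and 5. Of 26 very long genes without a blood role 7 did, with 20 KO-only and 2 WT-only peaks, led by Cntnap2 (9 and 1) and Wwox (4 and 1). The 7 were 26.9% of the list and 70% of its 10 genes with a KO S2P peak, near the 29.8% and 68.0% of all genes. For defining markers any overlap of a peak with the gene was counted. S2P then lay on 9 of 10 erythroid markers in each list. It lay on 1 of 5 mast cell, 1 of 5 megakaryocyte, 2 of 5 myeloid and 0 of 4 lymphoid markers. These counts were the same in WT and KO.

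RUNX1 and GATA2 peaks, which the rule did not use, overlapped a smaller share of KO-only than of shared S2P peaks. KO RUNX1 peaks overlapped 3.38% (3.22 to 3.56%) of KO-only peaks, against 5.76% of all KO S2P peaks under 10 kb, 6.61% of shared and 4.67% of WT-only peaks. KO GATA2 peaks overlapped 5.44% (5.23 to 5.65%), against 8.51% of all, 9.61% of shared and 6.16% of WT-only peaks. Width enters these shares, so the factor summit was also required within 500 bp of the S2P summit whatever the width. For RUNX1 this gave 4.77% (4.57 to 4.97%) of KO-only, 6.50% of shared and 6.48% of WT-only peaks. For GATA2 it gave 9.07% (8.80 to 9.34%), 9.60% and 10.4%. Leaving out peaks with a summit within 1 kb of a start site, the RUNX1 shares were 3.46% (3.29 to 3.64%), 4.27% and 4.28%. Peaks near starts missing from the promoter table, as on chromosome 18, stayed in. For GATA2 the difference from shared peaks was thus much smaller by distance between summits than by overlap, while that from WT-only peaks was not.

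Factor peaks that were themselves listed only in KO overlapped a smaller share of KO-only than of shared S2P peaks. KO-only RUNX1 peaks overlapped 363 of them (0.837%), against 2.06% of shared and 1.24% of WT-only S2P peaks. KO-only GATA2 peaks overlapped 583 (1.34%), against 2.87% and 1.65%. With the factor summit within 500 bp of the S2P summit, whatever the width, the shares were 1.52%, 2.12% and 2.19% for KO-only RUNX1 and 2.68% (2.53 to 2.84%), 2.86% (2.77 to 2.96%) and 3.23% for KO-only GATA2, so for GATA2 the intervals of KO-only and shared peaks overlapped. In all 917 carried either and 29 both. The strongest of the 917 by −log10 q was the peak at the end of Fhdc1, with a KO-only GATA2 peak of 5.76-fold enrichment in the authors' deposited list. Next came a peak of 76 fragments at chr17:23829241-23829441 with a KO-only RUNX1 peak. Mbnl2, a splicing regulator, had 56 fragments with GATA2, Pced1b 49 with RUNX1, Coa8 123 with GATA2, and a further Cntnap2 peak 72 with GATA2.

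By chromosome, the KO-only share of KO peaks was highest on X. It was 32.2% (30.9 to 33.6%) there, 1470 peaks, and 24.3 to 28.6% on the 19 autosomes, and X had 1.75 KO-only peaks per WT-only peak against 1.21 to 1.55 on autosomes. Without Sytl5 and Pola1 the share on X was 30.9% (29.5 to 32.3%). Chromosome 5 held 6.78% of KO-only, 7.51% of shared and 6.72% of WT-only peaks, and chromosome Y held 7 KO-only peaks.

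**Figure D5:**
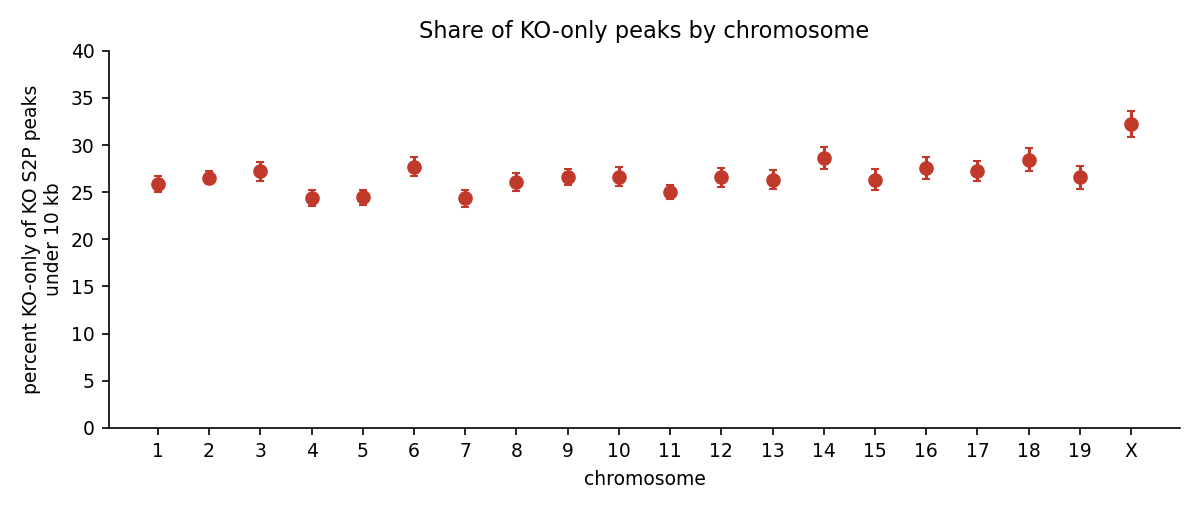
Percent of KO S2P peaks under 10 kb that are KO-only on each chromosome, with exact 95% intervals for counting error. X stands at 32.2%, and the autosomes lie between 24.3% and 28.6%.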

How the data were processed

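ChIP-seq peak lists for S2P, GATA2 and RUNX1 were taken as deposited, 6 lists from 8 immunoprecipitated of 14 samples. Bowtie2 2.2.1, MACS2 2.1.0 and the build GRCm38 (mm10) are named per the submitters' processing notes, without settings. The authors deposited for each peak a score (10 times −log10 q), a fold enrichment (ratio of summit to local background), −log10 p, −log10 q and a summit offset in bp. The lists have no header, and these meanings were checked on the values. Which input went with which list is not given in the sources used here.

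The rule was applied with Python 3.11.15, NumPy 2.4.6, pandas 2.3.3 and SciPy 1.17.1, with figures in matplotlib 3.10.9. Whole fragments at each S2P summit were recovered from the deposited fold and −log10 p under the Poisson model of the caller. Recomputed −log10 p came within 0.005 of the deposited value for 99.9994% of WT and 100% of KO summits at a KO scale of 0.961. The recovery was tested on simulated peaks. Depth is known only through these fragments.

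A peak was placed in a gene by its summit, using RefSeq genes of GRCm38.p6, and strand came from the promoter table, for 17492 coding genes. A promoter counted as covered where the peak held a start site of the promoter table, which has no gene of chromosome 18. Named genes were the 10 strongest peaks in named coding genes, the 10 genes with most members, the same among genes without WT peaks, the 10 with the largest share of length under members, the 6 strongest with a KO-only factor peak, the 6 strongest on starts and the 3 leading genes of each list, of which some are not reported here. The members and lists were chosen with earlier results of these data known. Nothing was tested between genotypes. Alternatives varied the threshold, overlap, width and gene assignment.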

Additional observations from a re-analysis of the deposited data

How the results depend on the processing

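No paired analysis was possible because each genotype had 1 S2P list, and for the same reason no replicate could be left out. Of 67 alternative values, 33 stayed within the counting interval of the reported value (counts within 1.5 times) and 34 moved. Peaks of any width gave the reported value throughout, which was fixed in advance. Every KO peak of 10 kb or more overlapped a WT peak, so the members were the same 43387. These values are among the 33 and do not speak to stability. Several other settings could move a value in only 1 direction. A wider gap or gene end can only raise a share, and a factor summit inside the peak can only lower it. Calling peaks within 500 bp shared takes out only members within 1 kb of a WT peak, so that share had to fall. The numbers that stayed and moved are thus no measure of stability. With −log10 q of at least 5 there were 15773 KO-only peaks with a median of 32 fragments, 89.98% in genes, 85.6% in genes with a WT peak, 74.0% within 1 kb of one, 4.82% with RUNX1 and 5.97% with GATA2, and 146 genes without a WT peak. At 3 the median was 28, the share in genes with a WT peak 87.1%, within 1 kb 71.7% and in the first decile 5.90%. When a WT peak within 500 bp also made a peak shared, there were 20712, with shares in the same order of 90.8%, 85.7%, 38.4%, 3.81% and 5.87%, and 6.52% on chromosome 5. When 50% overlap was needed, the median was 28, with 88.0% in genes with a WT peak, 78.4% within 1 kb and 5.83% with GATA2. Gene ends widened by 5 kb gave 97.3% in genes and 94.1% in genes with a WT peak, any base of the peak gave 87.8% for the latter, and a gap of at most 5 kb gave 93.1%. Factor summits inside the S2P peak gave 1.65% for RUNX1 and 3.11% for GATA2, and within 500 bp of its summit 4.77% and 9.07%. The first-decile share was 20.6% at 40 fragments or more, 9.36% in genes of 2 to 20 kb and 4.37% for peaks of 300 bp or more. Alternatives for the first-decile share, the 500 bp distance between summits and chromosome X were chosen after seeing the data. Values for WT-only peaks were recomputed only for subsets of the first-decile share and for the 500 bp distance between summits. Depth limits weak peaks most, whose summits rest on few fragments.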
